A study of Bos taurus with 9 samples.

Results

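The 81 genes described here, out of 9155 measured by named probe sets, read low in bovine mesenchymal stem cells (MSCs) both before and after chondrogenic culture and read higher in cultured articular chondrocytes. They were chosen on the group means of the deposited log2 values of 1 probe set per gene, the one of highest mean. A member had a mean under 6 in both MSC groups and a chondrocyte mean at least 2 above each of them, where a difference of 1 on the log2 scale is a doubling of the signal. Of 85 genes that met these conditions, SERPINA14, CNMD, CENPT and S100A8 were left out by name. The leading gene is GAL, which encodes the neuropeptide galanin. The choice used the chondrocyte values, so every difference between chondrocytes and MSCs below is a description without a test.

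RNA of 3 calf donors, aged 3 to 6 months, was measured on 9 expression arrays, 3 per group. The first group, MSC day 0, held MSCs taken at the start of culture in agarose. The second, MSC day 28, held MSCs kept in agarose for 28 days in a chemically defined medium with 10 ng/mL TGF-beta3, a growth factor that induces cartilage formation. The third held chondrocytes from articular cartilage after the same 28 days in agarose, medium and TGF-beta3. Each donor number occurs once in every group. Chondrocytes at day 0 and MSCs cultured without TGF-beta3 were not among the arrays, so that cell type cannot be told apart from an effect of culture particular to chondrocytes, and 28 days in culture cannot be told apart from TGF-beta3. Each array measured a bulk sample, in which more cells of a type and more RNA per cell cannot be told apart.

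Articular chondrocytes are the resident cells of joint cartilage and make its collagen and proteoglycan matrix. MSCs are stromal progenitors that make a similar matrix when cultured in a gel or pellet with TGF-beta. Ligands of the wider TGF-beta and bone morphogenetic protein (BMP) family act through receptor kinases and SMAD proteins, and secreted antagonists hold BMP ligands away from their receptors.

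The labelled cell types could be set against their matrix genes. COL2A1, the main collagen of cartilage, had a mean of 7.73 ± 0.78 (SD, n = 3) in MSCs at the start, 13.69 ± 0.12 in MSCs after 28 days, and 13.73 ± 0.20 in chondrocytes. ACAN, the large proteoglycan aggrecan, had means of 6.58, 12.57 and 12.38 in the same order. None of the 14 measured genes of a cartilage matrix list was a member. Hybridisation controls read between 10.60 and 10.67 on the donor 3 arrays of both day 28 groups and between 11.83 and 12.19 on the other 7 arrays. The difference between 3′ and 5′ probe sets of control transcripts ran from 1.14 to 1.59 in day 0 MSCs, from 1.58 to 1.95 in day 28 MSCs and from 1.59 to 1.96 in chondrocytes. The arrays with low hybridisation controls were left out or taken as a block as alternatives, and the part of the 3′ to 5′ difference in the members' values was not tested.

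The members' chondrocyte means ran from 4.02 to 9.18 with a median of 6.68, and the medians of their MSC means were 2.81 at day 0 and 3.35 at day 28. The smaller of the differences from the MSC groups had a median of 2.71 and reached 5.89. In 79 members all 3 chondrocyte arrays read above all 6 MSC arrays, which was true of 8.48% of all genes and of 9.36% of the 3321 genes with both MSC means under 6. The rule selected for this separation, and nothing is read from that count. The members with overlapping arrays were CA13 and BOLA-DQB1. The lowest chondrocyte array stood at least 1 above the highest MSC array in 66 members and at least 2 above it in 30. When each donor's chondrocytes were set against the same donor's MSCs, both differences were above 0 in all 3 donors for 80 members, at least 1 for 75 and at least 2 for 41. The rule selected for these counts as well and their shares over all genes were not computed, so nothing is read from them either.

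The name "on only in chondrocytes" describes a rule on levels, and the values limit it at both ends. In 26 members the chondrocyte mean was itself under 6, and in 12 it was 8 or higher. At least 1 MSC array reached 6 in 9 members (FAM174B, UPP1, ID1, CA13, BOLA-DQB1, PAMR1, CCNF, SLC1A3 and KNTC1). Calls of presence or absence were not used here, and 39.9% of all gene values lay under 6. Among 31 measured genes of unrelated organs, such as pancreatic hormones and milk proteins, 27 had all group means under 6 and the list's median chondrocyte level was 2.36, while PRL, ALB, AHSG and GH1 had all group means above 6. Because of the low MSC signals, differences are given on the log2 scale and not as folds. The same conditions turned round gave 94 genes for day 0 MSCs as the high group and 5 for day 28 MSCs, against 85 for chondrocytes, each before any gene was left out by name.

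**Figure D1:**
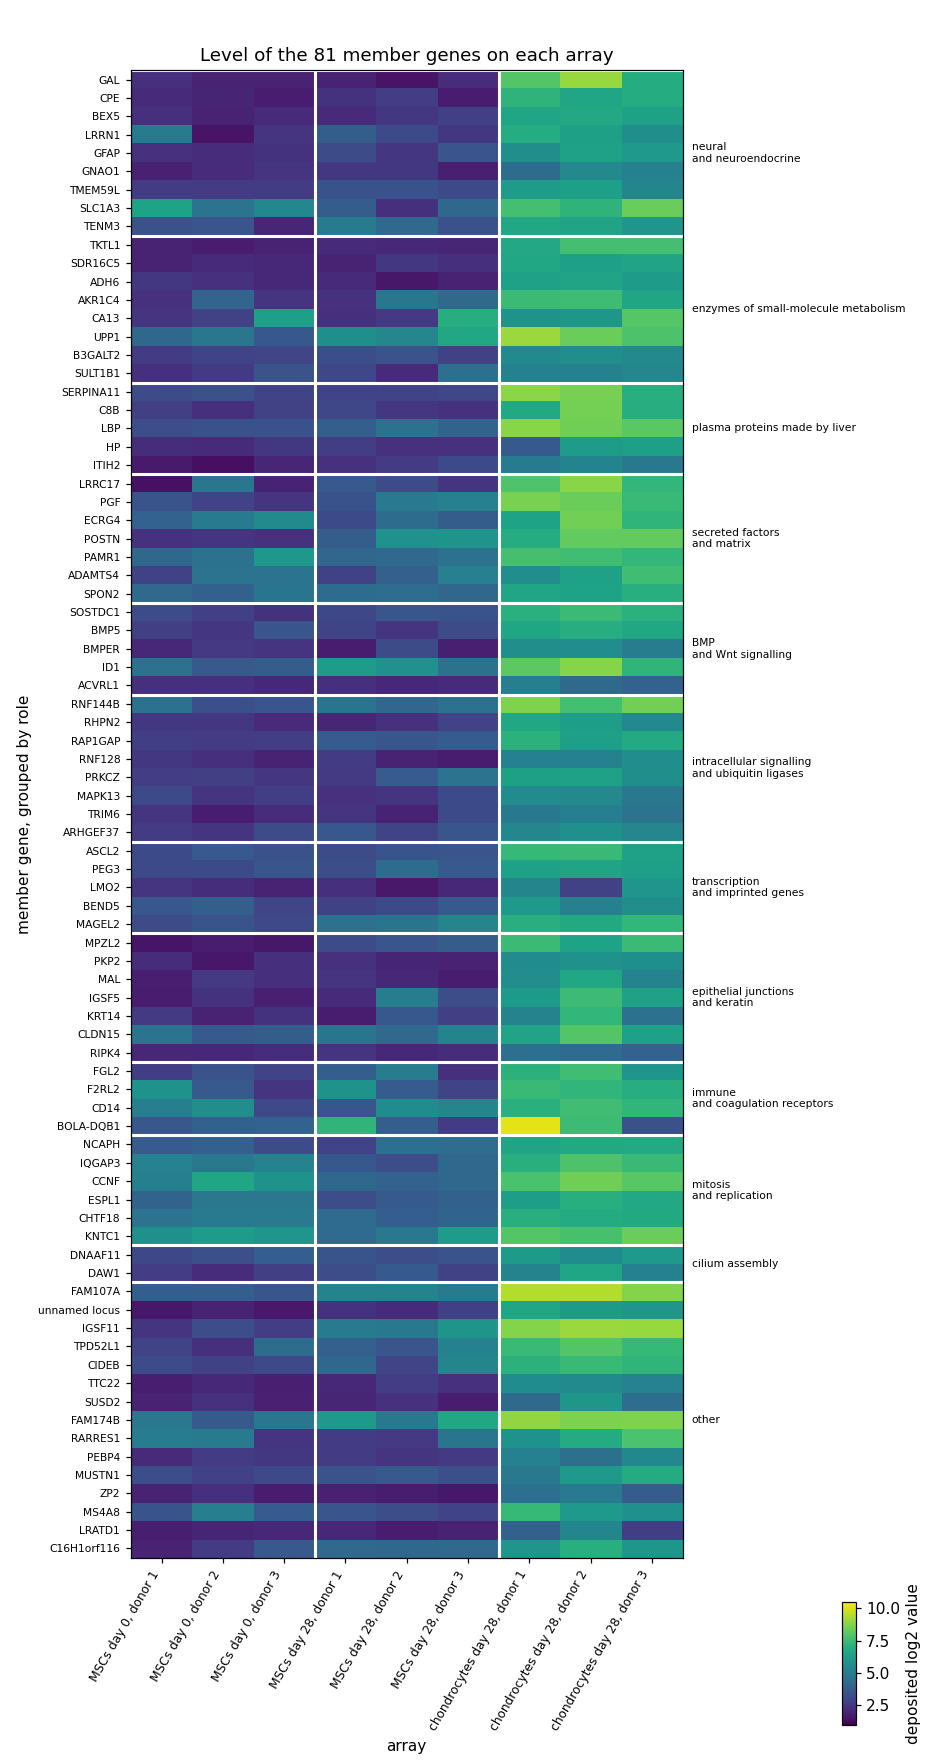
Deposited log2 value (colour) of each of the 81 members (vertical axis, grouped by role) on each of the 9 arrays (horizontal axis), with white lines between groups of arrays and between roles. The 3 chondrocyte columns are lighter than the 6 MSC columns in nearly every member, BOLA-DQB1 and CA13 being the members with overlapping arrays.

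Neural and neuroendocrine genes formed a group of 9 members, led by GAL. Galanin is a peptide of nerve endings and endocrine cells that acts on G protein-coupled receptors. GAL read 2.31, 1.95 and 1.91 in the day 0 MSCs of donors 1, 2 and 3, then 1.89, 1.48 and 2.19 in day 28 MSCs, and 7.96, 9.02 and 6.88 in chondrocytes. All 6 MSC arrays lay at or below 2.31 and all 3 chondrocyte arrays at or above 6.88, with donor 2 highest. The means were 2.06 ± 0.22, 1.86 ± 0.36 and 7.95 ± 1.07 (SD, n = 3 each). The smaller difference of 5.89 was the largest among the 81 members. Of the other genes of a galanin list, SPX, which encodes the related peptide spexin, was measured and read 5.98, 5.76 and 5.27 on average.

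CPE encodes carboxypeptidase E, which trims peptide precursors to hormones and neuropeptides. It read 2.13, 2.00 and 1.77 in day 0 MSCs, 2.41, 2.74 and 1.75 in day 28 MSCs and 7.18, 6.60 and 6.87 in chondrocytes. The groups of MSC and chondrocyte arrays stood 3.86 apart at their nearest values. Among 31 measured neuropeptide, hormone and granule genes, CPE was the only member, and the list's median difference between chondrocytes and day 28 MSCs was 0.16, against -0.02 over all genes. The precursor convertase gene PCSK1 and the granule genes CHGB and SCG2 had chondrocyte means of 2.05, 1.69 and 2.55. The granule gene CHGA and the peptide-amidating enzyme PAM read high in all groups, with means of 10.30, 9.38 and 9.87 and of 10.23, 10.28 and 10.68. PCSK1N, a convertase inhibitor, had means of 7.66, 5.23 and 6.14, and AGT, angiotensinogen, had means of 2.78, 8.11 and 10.12.

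The remaining genes of this group were BEX5, LRRN1, GFAP, GNAO1, TMEM59L, SLC1A3 and TENM3, with smaller differences from 2.21 to 4.08. GFAP, the intermediate filament of astrocytes, had means of 2.33, 3.06 and 6.06. Its list of 17 measured neural and glial markers held no other member, and its median difference was 0.08 from day 28 MSCs. The neuronal markers STMN2 and NEFL had chondrocyte means of 2.02 and 1.87, SNAP25 had means of 1.85, 3.02 and 4.47, and S100B, which chondrocytes also make, read 9.86, 11.98 and 12.34. The list's summed linear signal ran from 4059 to 4817 in day 0 MSCs, from 6118 to 7213 in day 28 MSCs and from 7919 to 8589 in chondrocytes, and its part in the GFAP values was not tested. Genes of high level weigh most in such a sum, and S100B had the highest mean of the list in both day 28 groups.

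Plasma proteins that the liver secretes formed a group of 5 members, put together after their values were seen. Of other liver plasma proteins, taken from the list of unrelated organs, ALB, APOB, F9, AHSG and AMBP differed by 0.41, 0.09, -0.08, 0.25 and -0.01 between chondrocytes and day 28 MSCs. SERPINA11, a serpin of unclear target, read 3.21, 3.37 and 2.97, then 2.93, 2.96 and 3.03 in the MSC groups, and 8.85, 8.57 and 7.0 in chondrocytes. The MSC arrays spread over less than the chondrocyte arrays, whose lowest value came from donor 3. On the ARS-UCD2.0 assembly SERPINA11 has no protein-coding gene between itself and SERPINA14, which also met the conditions and was left out by name.

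C8B, a chain of the complement component that helps open membranes, read between 2.29 and 3.03 on the MSC arrays and 6.78, 8.51 and 6.90 in chondrocytes. LBP, which binds bacterial lipopolysaccharide and passes it to CD14, read 3.28, 3.40 and 3.40 in day 0 MSCs, 3.89, 4.54 and 4.03 in day 28 MSCs and 8.82, 8.46 and 8.06 in chondrocytes. The 3 LBP groups did not overlap. HP, haptoglobin, read 6.24 and 6.34 in the chondrocytes of donors 2 and 3 and 3.71 in those of donor 1, with MSC arrays between 2.12 and 2.73. ITIH2, a heavy chain that is joined to hyaluronan, had means of 1.69, 2.72 and 5.01.

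Enzymes of small-molecule metabolism formed a group of 8. TKTL1, a protein related to transketolase of the pentose phosphate pathway, read 1.93, 1.75 and 1.96 in day 0 MSCs, 2.13, 2.07 and 2.01 in day 28 MSCs and 6.72, 7.66 and 7.65 in chondrocytes. Its smaller difference of 5.27 followed that of GAL. SDR16C5, a retinol dehydrogenase, read between 1.89 and 2.52 on MSC arrays and 6.68, 6.37 and 6.54 in chondrocytes. ADH6, an alcohol dehydrogenase, read between 1.63 and 2.54 on MSC arrays and 6.42, 6.55 and 6.21 in chondrocytes. In both enzymes the chondrocyte arrays lay close together and far from the MSC arrays.

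AKR1C4 (a hydroxysteroid dehydrogenase), SULT1B1 (a sulfotransferase), ADH6 and CA13 belong to families with close paralogs, so that a probe set can take signal from a relative. AKR1C4 had means of 2.96, 3.78 and 7.21, and SULT1B1 had means of 2.79, 3.23 and 5.25. UPP1, the uridine phosphorylase that splits uridine, had means of 4.17, 5.95 and 8.43. CA13, a carbonic anhydrase, followed the donor more than the group. It read 6.37, 6.91 and 8.01 in donor 3 across the 3 groups, and 2.46, 2.31 and 5.86 in donor 1. B3GALT2, a galactosyltransferase of glycan chains, had means of 2.86, 3.20 and 5.56.

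Genes of BMP and Wnt signalling formed a group of 5 that held a ligand, antagonists, a receptor and a target. BMP5, the ligand, read 2.79, 2.5 and 3.52 in day 0 MSCs, 2.96, 2.41 and 3.18 in day 28 MSCs and 6.61, 6.92 and 6.69 in chondrocytes. SOSTDC1, a secreted antagonist of BMP and Wnt ligands, read 3.21, 2.78 and 2.39, then 3.07, 3.54 and 3.46, and 7.03, 7.49 and 7.05 in chondrocytes. In both genes the chondrocyte arrays stood more than 3 above the highest MSC array.

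BMPER, an extracellular modulator of BMPs, had means of 2.36, 2.26 and 5.46. ACVRL1, the type I receptor also called ALK1, had means of 2.25, 2.18 and 4.45, so that its chondrocyte mean was under 6 too. ID1, a direct target of BMP signalling that inhibits basic helix-loop-helix factors, had means of 4.02, 5.53 and 8.04. Of 54 measured growth factors, cytokines and their antagonists, BMP5 and PGF were members. The list's median difference between chondrocytes and day 28 MSCs was 0.02, and BMP4, another ligand of the family, had means of 5.45, 3.62 and 3.59.

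Other secreted and matrix genes numbered 7. LRRC17, a secreted leucine-rich repeat protein, read 1.44, 4.72 and 1.90 in day 0 MSCs, 3.64, 3.16 and 2.46 in day 28 MSCs and 7.90, 8.80 and 7.30 in chondrocytes. Donor 2 was the highest in day 0 MSCs and in chondrocytes. PGF, placental growth factor, a ligand of the vascular endothelial growth factor family, read 3.48, 2.95 and 2.45, then 3.38, 4.93 and 5.15, and 8.60, 8.36 and 7.44 in chondrocytes. PGF arrays of donors 2 and 3 stood above those of day 0 MSCs at day 28, while donor 1 did not.

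POSTN, the matricellular protein periostin, read 2.40, 2.48 and 2.35 in day 0 MSCs, 3.79, 5.80 and 5.90 in day 28 MSCs and 6.87, 8.22 and 8.21 in chondrocytes. Donor 1 was lowest in both day 28 groups. ADAMTS4, an aggrecanase that cuts aggrecan, had means of 4.02 ± 1.02, 3.97 ± 1.14 and 6.56 ± 0.96. It was the only member among 30 measured matrix proteases and inhibitors, and ADAMTS5, the other main aggrecanase, had means of 5.70, 3.46 and 2.94. SPON2, ECRG4 and PAMR1, all secreted, had smaller differences of 2.40, 2.62 and 2.59.

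**Figure D2:**
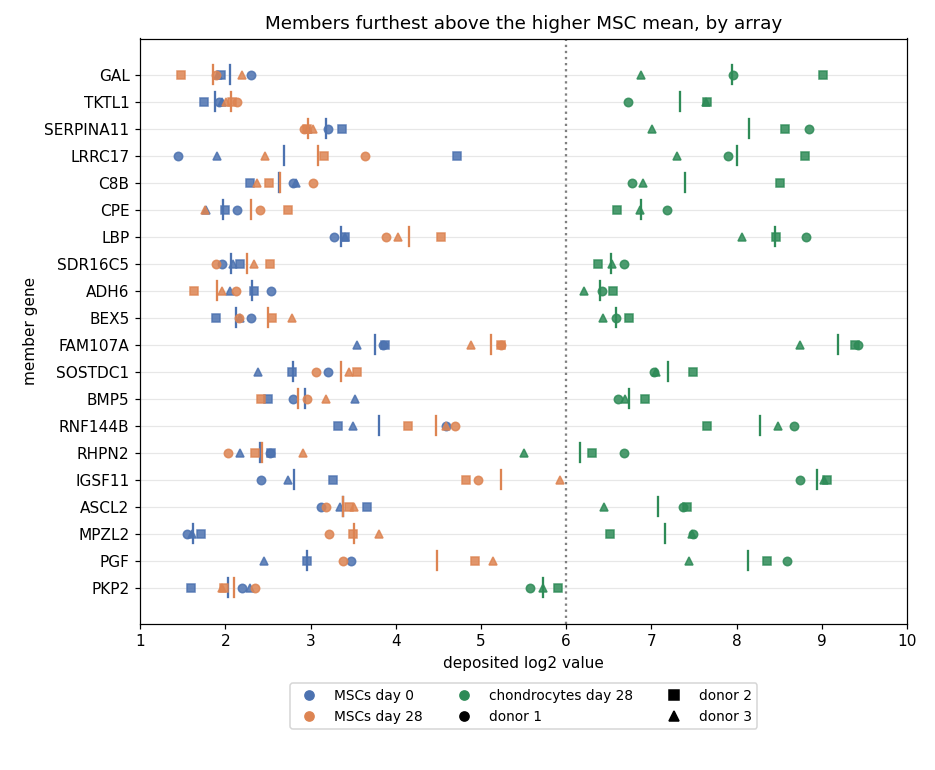
Deposited log2 value (horizontal axis) on each array for the 20 named members (vertical axis) with the largest smaller difference. Colour marks the group, symbol the donor, a vertical tick the group mean and the dotted line the limit of 6 on MSC means. In each of these genes every chondrocyte array lies to the right of every MSC array, and PKP2 has a chondrocyte mean of 5.73, under the limit that was set for MSCs.

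Genes of epithelial junctions and keratin formed a group of 7. MPZL2, an adhesion protein of epithelia, read 1.55, 1.72 and 1.60 in day 0 MSCs, 3.22, 3.50 and 3.80 in day 28 MSCs and 7.49, 6.51 and 7.47 in chondrocytes. The 3 groups were separate, with day 28 MSCs between the others. PKP2, a desmosome plaque protein, had means of 2.03, 2.10 and 5.73, and MAL, a membrane protein of apical sorting, had means of 2.23, 2.08 and 5.86. KRT14, a keratin of basal epidermal cells, read 5.25, 7.30 and 4.59 in chondrocytes and between 1.73 and 3.60 on MSC arrays.

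RIPK4, a kinase of epidermal differentiation, and the junction proteins IGSF5 and CLDN15 had smaller differences of 2.00, 3.22 and 2.22. KRT14 was the only member among 18 measured epithelial markers, whose median difference from day 28 MSCs was 0.03. EPCAM had means of 1.56, 1.5 and 1.73, and CDH1 had means of 7.33, 2.77 and 2.72. KRT5, the usual partner of KRT14, read 6.32, 5.66 and 7.11, and CLDN4 read 4.20, 5.42 and 7.06. The summed linear signal of the list ran from 1062 to 1607, from 1020 to 1871 and from 1505 to 3366 in the 3 groups, and its part in the KRT14 values was not tested. Genes of high level weigh most in such a sum. S100A2 had the highest mean of the list in every group, at 9.95, 10.02 and 10.86.

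Immune and coagulation receptors formed a group of 4. CD14, the receptor that takes lipopolysaccharide from LBP, read 5.08, 5.68 and 3.09 in day 0 MSCs, 3.55, 5.62 and 5.33 in day 28 MSCs and 7.02, 7.60 and 7.25 in chondrocytes. The chondrocyte arrays were close to each other and the MSC arrays spread over more than 2. Of 22 measured blood cell markers CD14 was the only member, and their median difference from day 28 MSCs was 0.06. PTPRC, the pan-leukocyte marker, read 2.49, 2.15 and 2.25, and CD3E, MS4A1 and HBB had group means between 1.80 and 2.23. CSF1R, a macrophage receptor, read 4.39, 6.01 and 7.61, and the list's summed signal ran from 617 to 1103, from 423 to 472 and from 607 to 666 in the 3 groups, and its part in the CD14 values was not tested. CTSS, with means of 9.07, 7.92 and 6.80, was the highest of the list in both MSC groups, and CSF1R in chondrocytes.

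F2RL2, a protease-activated receptor for thrombin, had MSC arrays that followed the donor, with 5.86 and 5.83 in donor 1 and 2.44 and 2.94 in donor 3, and read 7.44, 7.24 and 6.90 in chondrocytes. FGL2, a secreted protein related to fibrinogen, had means of 3.04, 3.72 and 6.89, and 2 protein-coding genes lie between it and LRRC17 on the ARS-UCD2.0 assembly. BOLA-DQB1 encodes a beta chain of the class II antigen-presenting molecule and belongs to a polymorphic family of near-identical genes. It read 10.11, 7.52 and 3.35 in the chondrocytes of donors 1, 2 and 3, 7.22, 3.86 and 2.68 in day 28 MSCs and 3.56, 3.96 and 3.97 in day 0 MSCs. In donor 3 the chondrocytes differed by 0.67 from day 28 MSCs and by -0.62 from day 0 MSCs. Without donor 3 the other 2 donors alone still placed the gene above the rule.

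Genes of transcription and imprinting numbered 5. ASCL2, a basic helix-loop-helix factor, read between 3.13 and 3.66 on MSC arrays and 7.38, 7.42 and 6.45 in chondrocytes. LMO2, a LIM-domain factor of blood and endothelium, read 5.37, 2.87 and 5.98 in chondrocytes, so that donor 2 lay near the MSC range of 1.65 to 2.47. The imprinted genes PEG3 and MAGEL2 had means of 3.26, 3.76 and 6.44 and of 3.27, 4.85 and 7.0. BEND5, a DNA-binding protein, had means of 3.48, 3.22 and 5.64. None of the 33 measured genes of a transcription factor list was a member.

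Intracellular signalling proteins and ubiquitin ligases numbered 8. RNF144B, a ubiquitin ligase, read 4.58, 3.32 and 3.50, then 4.69, 4.15 and 4.58, and 8.67, 7.65 and 8.49 in chondrocytes. RAP1GAP, which switches off the small GTPase RAP1, had means of 2.73, 3.68 and 6.77. RNF128 and TRIM6 (ubiquitin ligases), PRKCZ and MAPK13 (kinases) and ARHGEF37 had smaller differences from 2.17 to 3.08.

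Genes of mitosis and replication numbered 6 and stood near the limit, with a median smaller difference of 2.19. CCNF, cyclin F, read 5.09, 6.61 and 5.85 in day 0 MSCs, 4.18, 4.0 and 4.19 in day 28 MSCs and 7.77, 8.45 and 8.05 in chondrocytes. IQGAP3, a scaffold protein of dividing cells, read 5.20, 4.85 and 5.25, then 3.62, 3.25 and 4.16, and 6.94, 7.84 and 7.41. Both genes read in the order day 28 MSCs, day 0 MSCs and chondrocytes in every donor. NCAPH (condensin), ESPL1 (separase), CHTF18 (sister chromatid cohesion) and KNTC1 (kinetochore) had smaller differences from 2.03 to 2.79.

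Of 84 measured genes of a cell cycle and replication list, ESPL1 and NCAPH were members. The list's median difference from day 28 MSCs was 1.87 and 40 of its genes stood 2 or more above day 28 MSCs, against 2.52% of all genes. Its median difference from day 0 MSCs was 1.11, with 6 genes at 2 or more, against 3.94% of all genes. Summed linear signal of the list ran from 15890 to 20674 in day 0 MSCs, from 8832 to 14264 in day 28 MSCs and from 31092 to 34445 in chondrocytes. The part of dividing cells in the other members' values was not tested.

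The cilium assembly genes DNAAF11 and DAW1 had smaller differences of 2.57 and 2.40. Another 15 members had other roles, 1 of them a locus without a gene name. FAM107A, an actin-binding protein, read 3.85, 3.87 and 3.55, then 5.23, 5.23 and 4.88, and 9.42, 9.39 and 8.74 in chondrocytes. IGSF11, an adhesion protein of the immunoglobulin family, read 2.42, 3.27 and 2.74, then 4.97, 4.82 and 5.92, and 8.75, 9.06 and 9.02. In both genes the 3 groups were separate. TPD52L1, CIDEB (a lipid droplet protein), TTC22, SUSD2, FAM174B, RARRES1, PEBP4, MUSTN1, ZP2 (an egg coat protein), MS4A8, LRATD1 and C16H1orf116 had smaller differences from 2.07 to 3.39.

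The change of the members within MSCs, from day 0 to day 28, was not used to choose them, although the rule held both MSC means under 6 and the same arrays served the choice. It was tested with limma over all probe sets, with Benjamini-Hochberg adjustment and a threshold of 0.05. The fit pooled the spread of all 3 groups, so the chondrocyte values that chose the members entered the standard errors. After 28 days 14 members were higher, 5 were lower and 62 did not pass. The share of members called higher was 17.3%, against 13.5% of all genes and 7.41% of genes with both MSC means under 6. The share called lower was 6.17%, against 21% of all genes and 10.9% of genes with both MSC means under 6. A filter at the 25th percentile of mean signal kept all 81 members and 2015 of these low genes. In the fit of the kept probe sets, 12.4% of those 2015 were called higher and 16.1% lower. The filter used all 9 arrays, so the chondrocyte values that chose the members helped them pass. The median difference was 0.22 over members, -0.11 over all genes and -0.09 over genes low in both MSC groups. Leaving out donor 1 or donor 2 left 9 higher and 3 lower, and leaving out donor 3 left 11 and 3. Of genes with both MSC means under 6, 4.61%, 4.79% and 5.51% were then higher and 5.72%, 5.57% and 7.5% lower without donors 1, 2 and 3. Of single arrays, leaving out donor 2 of day 0 MSCs left 9 higher, and leaving out donor 3 of day 0 MSCs or donor 2 of day 28 MSCs left 3 lower.

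Among the members that rose in MSCs, IGSF11 rose by 2.43 ± 0.31 (SE, limma adjusted p = 0.000417) and MPZL2 by 1.88 ± 0.27 (adjusted p = 0.00077). MAGEL2, which regulates protein sorting from endosomes, rose by 1.58 ± 0.23 (limma adjusted p = 0.000808), reading 3.22, 3.47 and 3.11 at day 0 and 4.54, 4.69 and 5.31 at day 28. FAM107A rose by 1.36 ± 0.21 (limma adjusted p = 0.00124). All 3 donors rose in each of these 4 genes, and their calls held in all 18 alternatives of scaling, fit and arrays.

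POSTN rose by 2.75 ± 0.55 (limma adjusted p = 0.0049), the largest rise of a member, and did not pass without donor 2 (adjusted p = 0.0733) or without donor 3 (adjusted p = 0.0621). RAP1GAP rose by 0.95 ± 0.19 (limma adjusted p = 0.00453) and did not pass without donor 3 (adjusted p = 0.0622). ITIH2 rose by 1.02 ± 0.24 (limma adjusted p = 0.0103) and did not pass without donor 2 (adjusted p = 0.091). UPP1 rose by 1.77 ± 0.42 (limma adjusted p = 0.011) and did not pass without donor 1 (adjusted p = 0.071). These 4 calls held when single MSC arrays were left out and under every other scaling.

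The remaining rises had limma adjusted p-values from 0.02 to 0.0459. C16H1orf116 rose by 1.49, LBP by 0.79, FAM174B by 1.46, PGF by 1.52 and ID1 by 1.52, beside the unnamed locus at 0.71. Each lost its call in at least 6 of the 18 alternatives. Without donor 2 the limma adjusted p reached 0.108 for C16H1orf116, 0.184 for LBP, 0.273 for PGF and 0.25 for ID1, and without donor 1 it reached 0.166 for FAM174B and 0.152 for the unnamed locus. With the donor as a block, the limma adjusted p was 0.0542 for PGF and 0.0507 for the unnamed locus. With the arrays of low hybridisation controls as a block it was 0.07 for FAM174B, 0.0669 for PGF and 0.0585 for the unnamed locus, and without those arrays it was 0.132, 0.107 and 0.0834, and 0.0621 for C16H1orf116.

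The 5 members that fell in MSCs were SLC1A3 and 4 genes of mitosis and replication. CCNF fell by 1.73 ± 0.34 (limma adjusted p = 0.00426), IQGAP3 fell by 1.42 ± 0.28 (adjusted p = 0.00441) and CHTF18 fell by 0.76 ± 0.17 (adjusted p = 0.00745). SLC1A3, a glutamate transporter of glial cells that is also found in cartilage, fell by 2.09 ± 0.58 (limma adjusted p = 0.0233), reading 6.5, 4.60 and 5.43 at day 0 and 3.80, 2.28 and 4.18 at day 28. ESPL1 fell by 0.91 ± 0.28 (limma adjusted p = 0.0362). In the wider cell cycle list 41 of 84 measured genes fell and 3 rose over the same days, as one tally beside the shares of 21% and 13.5% over all genes.

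Leaving out arrays ended these calls too. Without donor 3 the limma adjusted p was 0.0529 for CCNF and 0.0828 for CHTF18, without donor 1 it was 0.0546 for IQGAP3 and 0.156 for SLC1A3, and without donor 2 it was 0.105 for CHTF18 and 0.196 for ESPL1. With the donor as a block, 16 members were higher and 6 lower, against 8.49% and 12.8% of genes with both MSC means under 6. The block added TENM3 (difference 1.20, limma adjusted p = 0.00423), IGSF5 (1.49, adjusted p = 0.0143), TMEM59L (0.65, adjusted p = 0.0428) and RNF144B (0.67, adjusted p = 0.0435) as higher and ECRG4 (-1.03, adjusted p = 0.038) as lower.

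The step from day 0 to day 28 MSCs was also expressed, for the members called in MSCs, as a percentage of the distance from day 0 MSCs to chondrocytes. It is not given for members that were not called, such as GAL, whose MSC means lay near the level of genes of unrelated organs. Some called members also started near that level, which had a day 0 median of 2.45. The day 0 means of POSTN, IGSF11 and C16H1orf116 were 2.41, 2.81 and 2.75, so their percentages carry the same limit. POSTN stood furthest along, at 51.4%, followed by MAGEL2 at 42.3%, C16H1orf116 at 41.8%, UPP1 at 41.7% and IGSF11 at 39.6%. The members that fell had negative positions, from -94.7% for SLC1A3 to -37.6% for CHTF18. These positions use the chondrocyte values that chose the genes.

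**Figure D3:**
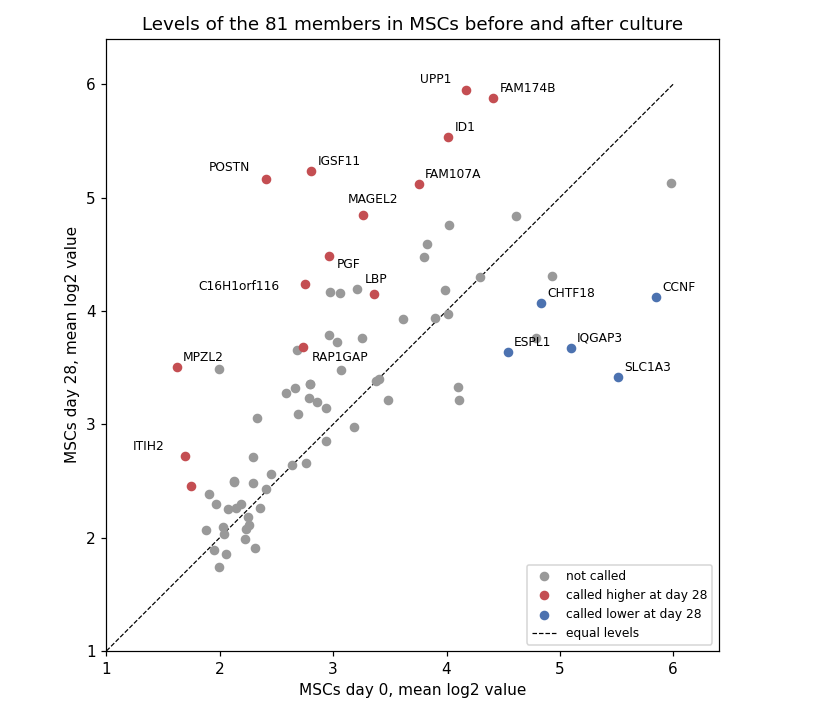
Mean log2 value of the 81 members in day 28 MSCs (vertical axis) against day 0 MSCs (horizontal axis), each over 3 arrays. Points above the dashed line of equal levels read higher at day 28, red marks the 14 members called higher and blue the 5 called lower by limma, and the remaining 62 are grey.

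The spread of the members over the 3 donors was described in chondrocytes. The SD over donors had a median of 0.449 over members, 0.184 over all genes and 0.216 over 4899 genes in the same range of levels, and the difference was not tested. The range over donors was under 1 in 48 members and over 2 in BOLA-DQB1, LMO2, KRT14, HP, LRATD1, CA13 and GAL. Donor 2 was highest in 40 members, donor 1 in 27 and donor 3 in 14, against 33.2%, 34.3% and 32.5% of all genes. Donor 3 was lowest in 42 members. The share of all genes lowest in donor 3 was not computed, and nothing is read from that count. The chondrocyte array of donor 3 was one of the arrays with low hybridisation controls. The part of that array's hybridisation in these values was not tested.

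**Figure D4:**
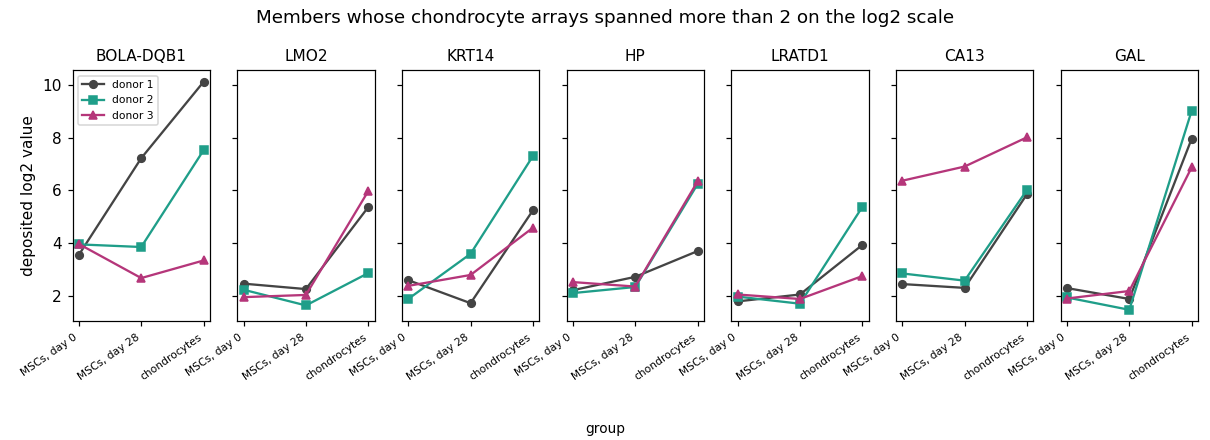
Deposited log2 value (vertical axis) in the 3 groups (horizontal axis) for the 7 members whose chondrocyte arrays spanned more than 2, with 1 line per donor. BOLA-DQB1 reads 10.11 in the chondrocytes of donor 1 and 3.35 in those of donor 3, and CA13 reads above 6 in all 3 groups of donor 3.

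The rule was also applied to 2 donors at a time and the third donor was read afterwards. Without donor 1 it found 76 genes, of which 55 stood 2 or more above both MSC groups in donor 1 and 75 stood above them at all. Without donor 2 it found 76 genes, of which 59 and 75 did so in donor 2. Without donor 3 it found 90 genes, of which 50 and 87 did so in donor 3. Among genes with both MSC means under 6 in the donors used, an excess of 2 or more in the donor left out was seen for 2.60%, 3.00% and 2.18%. Of the genes found, 69, 70 and 73 were among the 81 members, which all 3 donors had chosen, so this is a description and not a replication. The share of low genes above both MSC groups at all was not computed, and the counts of 75, 75 and 87 are not read.

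The rule used 1 probe set per gene, and 26 members had further probe sets, 45 in all. Of these, 35 had a smaller difference above 0, 12 reached 1 and 6 reached 2, with a median of 0.29. The 6 belonged to RNF144B (3.09 and 2.94), CIDEB (2.89), ID1 (2.43), B3GALT2 (3.12) and TENM3 (2.33). In 18 members a further probe set differed by 2 or more from the one used. They were C8B, MPZL2, PKP2, GFAP, AKR1C4, TPD52L1, BMPER, F2RL2, NCAPH, GNAO1, PEG3, TMEM59L, PAMR1, LMO2, MUSTN1, BOLA-DQB1, B3GALT2 and ESPL1. BMPER had 3.10 by the set used and 0.26 by the other, GNAO1 had 2.71 and 0.40, LMO2 had 2.51 and 0.37, and ESPL1 had 2.14 and 0.11. C8B had 4.76 by the set used and -0.05 by the other, MPZL2 had 3.65 and 0.04, PKP2 had 3.64 and 0.60, and GFAP had 3.01 and 0.13. For CD14 the values were 2.45 and 1.47, and for AKR1C4 the 5 further sets lay between -0.24 and 0.21. The further sets of C8B, MPZL2 and PKP2 read under 2.5 in every group.

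**Figure D5:**
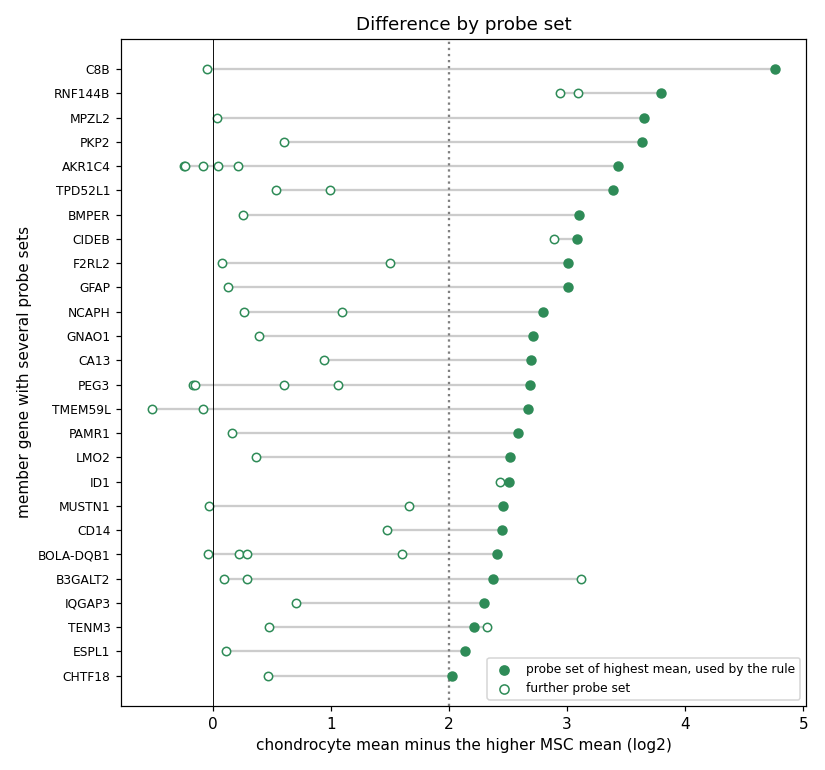
Chondrocyte mean minus the higher MSC mean (horizontal axis, log2) for each probe set of the 26 members with more than 1 (vertical axis). Filled points are the probe sets used by the rule and open points the 45 further sets, of which 6 reach the dotted line at 2.

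Members and other genes met closely at the limits of the rule. Just inside the excess of 2 stood RIPK4 (2.00), SULT1B1 (2.02), KNTC1 (2.03), CHTF18 (2.03) and C16H1orf116 (2.07), and just outside it MEIS1 (1.96), TG (1.95), STIL (1.93), TFRC (1.93) and RPS6KL1 (1.92). At the limit of 6 on day 0 MSCs, KNTC1 (5.98), CCNF (5.85), SLC1A3 (5.51), IQGAP3 (5.10) and PAMR1 (4.93) were inside, and TROAP (6.26) and SPAG5 (6.45) outside. At the limit on day 28 MSCs, UPP1 (5.95), FAM174B (5.88), ID1 (5.53), IGSF11 (5.24) and POSTN (5.16) were inside, and SPON1 (6.01), RHOJ (6.14), CXCL14 (6.22), FRY (6.25) and MALL (6.58) outside. Of 108 genes with an excess of 2 or more over both MSC groups, 85 had both MSC means under 6 and 23 did not.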

How the data were processed

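Total RNA of 9 samples was amplified from the poly(A) tail and hybridised to bovine arrays, each sample to its own, as the labels' protocols state. The deposited log2 values were made by the authors with RMA, per the submitters' processing notes; its version is not given in the sources used here. RMA brings all arrays to 1 distribution, so a shift of most transcripts cannot be seen. Of 24128 probe sets, 112 controls were left out; of 24016 tested, 13292 had 1 symbol, 86 several and 10638 none. Gene identifiers of 13263 matched a RefSeq table (ARS-UCD2.0), used for names and neighbours.

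Groups were fitted together with limma 3.58.1 (lmFit, eBayes) in R 4.3.3, without a filter on low values, with p-values adjusted over all probe sets. The fit was tested on simulated data. Replicates are donors with the same number in each group. Deviations from group means correlated between 0.11 and 0.41 in the 9 pairs of arrays of the same donor and between -0.30 and 0.15 in the 18 other pairs. The value of 0.41 came from the donor 3 arrays of both day 28 groups, which share low hybridisation controls. The donor number was taken to pair the arrays. The main calls come from the fit without a donor block, and the block is an alternative. Whether the day 0 and day 28 cultures were separate isolations is not stated.

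The members, lists and roles were chosen with earlier results of these data known. Named genes were GAL, the 20 members of largest smaller difference, members called between the MSC groups (up to 8 per direction), members in a list, the 5 genes on each side of each limit, and members whose probe sets disagree by 2 or more; other members were named after their values were seen. A locus without a gene name was counted only. The lists were galanin system, neuropeptides, cell cycle, cartilage matrix, articular surface, matrix proteases, transcription factors, growth factors, blood, endothelial, skeletal muscle, neural, epithelial and marrow stromal markers, and genes of unrelated organs. Alternatives covered the probe set, scaling, limits, arrays left out, donor block, low-signal filter and variance model. Sequences and motifs were not analysed here. The values of 1 member, which the rule would name, are not reported in the text.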

Additional observations from a re-analysis of the deposited data

Results flagged for a closer look

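Probe sets without a single gene symbol were outside every comparison above. Of 10724 such probe sets, 84 met the conditions that chose the members, a share of 0.783%, beside 0.885% of named genes for the 81 members. Their smaller difference had a median of 2.63 and reached 5.83. The probe set of largest excess had means of 2.57, 2.62 and 8.45 in day 0 MSCs, day 28 MSCs and chondrocytes, and the next had means of 1.98, 2.28 and 7.99.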

How the results depend on the processing

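The number of members moved with the limits of the rule: 127 genes with an excess of 1.5 or more, 35 with 3 or more, and 30 when every array had to keep within the rule. It was 61 with the mean of a gene's probe sets (60 of them members), 76 to 96 under the other scalings, 75 and 88 with limits of 5.5 and 6.5, 76 to 90 with a donor or an array left out, and 92 without the day 28 arrays of low hybridisation controls. Chosen after seeing the data, a chondrocyte mean of 6 or more left 55, and asking every probe set to meet the rule left 58. Between the MSC groups, 12 to 16 members were higher and 4 to 6 lower under other scalings, fits, the filter and the donor as a replicate block (16 higher, 12 of them among the 14, and 6 lower, including all 5). The filter used the mean over all 9 arrays, and all 81 members passed it with the help of the chondrocyte values that chose them. Its unchanged counts are therefore not read as support. Of the 2015 kept genes with both MSC means under 6, 12.4% were higher and 16.1% lower. With single donors or arrays left out, 9 to 15 were higher and 3 to 6 lower, and calls of at least 2-fold numbered 11 and 3. Of further probe sets, 12 in place of 6 reached a difference of 1, also tried after seeing the data. Differences from chondrocytes were run for the 20 members of largest smaller difference, and 9 of 760 moved by more than the spread between replicates. CA13 and BOLA-DQB1, with overlapping arrays, were not run, nor were the members just inside the excess of 2. Of 342 call values between the MSC groups, run for the 19 members called, 72 no longer passed. No direction reversed, but both sets were chosen for their differences in these same arrays, so this is not read as support. Centring on ribosomal protein genes moved the median gene by 0.17 and 0.20 between chondrocytes and day 28 and day 0 MSCs, and centring on array medians moved it by -0.12 against day 0. The 3 arrays per group limit the precision, and signals near the bottom of the scale have no detection call here. The cause of lost calls was not tested. Leaving out arrays also left fewer of them to the fit. Some calls were lost with every array kept, such as ID1 with arrays centred on their median (limma adjusted p = 0.0561) and PGF with the donor as a block (limma adjusted p = 0.0542).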

Other observations

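Further probe sets of 3 genes that are not members met the conditions while the set of highest mean did not. TCN2, which encodes the vitamin B12 carrier transcobalamin, had means of 2.69, 3.29 and 8.23 in day 0 MSCs, day 28 MSCs and chondrocytes by such a set, an excess of 4.94. The set of highest mean read 12.01, 12.18 and 12.50, an excess of 0.31. CDK5R1 had an excess of 2.27 by a further set and -0.20 by the highest. MEG3, an imprinted RNA that is not translated, had 2.16 and 1.63, and its highest set read 4.41, 6.49 and 8.13.

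The lists that held no member gave the following values. Of 10 measured articular surface genes, none stood 2 or more above day 28 MSCs, and their median difference was 0.12. Of 12 endothelial markers and 16 skeletal muscle markers, none did, with median differences of -0.02 and -0.03. The 13 marrow stromal markers had a median difference of -0.31 from day 28 MSCs. On the ARS-UCD2.0 assembly, 4 pairs of genes that met the conditions had fewer than 10 protein-coding genes between them: SERPINA11 and SERPINA14, LRRC17 and FGL2, RIPK4 and IGSF5, and C8B and TTC22. How many such pairs an equal number of other genes would give was not computed, and nothing is read from the count.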
